A study of Mus musculus with 16 samples.

Results

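The genes described here are 10 members of the cellular response to low oxygen: Hif1a, Car9, Adm, Bnip3, Egln1, Egln3, Ndrg1, Ankrd37, Ero1l and Pdk1. They are Hif1a itself and targets of its protein outside glycolysis and the VEGF genes. The list is one of names with no threshold on a value, and it was drawn up with earlier results of these data known. An Affymetrix array reads a transcript through probe sets, short groups of oligonucleotides, and a probe set was taken where the platform's gene table gave it a single symbol from this list. That found 25 of the 45101 probe sets. Ero1l carries its current symbol Ero1a in that table and was matched as an older name through the RefSeq table, so that 10 of 18193 measured genes are members.

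Total RNA came from the thoracic mammary gland of female FVB/N mice, and every group was homozygous for the SV40 large T antigen driven by the C3(1) fragment of a rat prostatic steroid binding protein promoter. This transgene gives rise to mammary tumours. After weaning the females lived either alone, called isolated here, or in a cage with other females, called grouped. Glands were taken at 15 or 20 weeks of age, in estrus and at a set hour of the dark phase. There were 4 arrays in each of the 4 groups: grouped at 15 weeks, isolated at 15 weeks, grouped at 20 weeks and isolated at 20 weeks. The labels number the arrays but do not tie each number to its own mouse, so the p-values reflect how far these samples scatter, which may be technical. The study asked how isolation changes gene expression in this gland.

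In cells with enough oxygen, prolyl hydroxylases of the Egln family mark the HIF-1 alpha protein, made from Hif1a, and the von Hippel-Lindau protein Vhl then directs its destruction. When oxygen falls the hydroxylases slow, HIF-1 alpha accumulates, pairs with Arnt and binds short DNA elements near its target genes. Because this control acts on the protein, the Hif1a transcript is not a readout of HIF activity, while the target transcripts are widely used as one. The targets include Egln3 and Egln1, which feed back on HIF, and genes for pH control, blood vessel dilation, mitochondrial removal and pyruvate use. Fast growing mammary tumours can outgrow their blood supply, and many of these genes are known there as hypoxia markers.

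The whole gland was used, so fewer cells of a type and less RNA per cell cannot be told apart. Of 16 luminal epithelial markers 14 were measured, and none of them lay under the lower quartile of the values on all 16 arrays. Values are log2 levels, on which a step of 1 is a doubling. The value distributions of the ages were not alike: ranked from low to high, values of any pair of arrays lay 0.0262 apart on average (log2) within an age and 0.233 apart across ages, and the median gene was 0.23 higher at 20 weeks in grouped and 0.24 higher in isolated mice. Age and array processing cannot be told apart here, so the members' differences with age are given as deposited and again after quantile normalization, which gives the 8 arrays of a comparison one distribution. That step moved the median difference of all genes to 0.01 in grouped and 0.02 in isolated mice. Single genes outside the 10 are given as deposited and are to be read against the medians of 0.23 and 0.24.

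HIF binds DNA at the core letters ACGTG or GCGTG, and the stretches below are shown because these 6 genes moved with age, 4 of them up and 2 down. Each is the 100 bases directly before a gene's RefSeq start in build GRCm38.p6, written along the gene, with either core on either strand in capitals (on the other strand the cores read CACGT and CACGC). Car9 (chr4:43506926-43507025, plus strand), Adm (chr7:110627557-110627656, plus strand), Ankrd37 (chr8:45999851-45999950, minus strand) and Ero1a (chr14:45318573-45318672, minus strand) were higher at 20 weeks, and Bnip3 (chr7:138909507-138909606, minus strand) and Pdk1 (chr2:71873124-71873223, plus strand, the first of its 2 starts in the table) were lower.
Car9: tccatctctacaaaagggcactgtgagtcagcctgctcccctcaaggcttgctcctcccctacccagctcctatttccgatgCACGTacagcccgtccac
Adm: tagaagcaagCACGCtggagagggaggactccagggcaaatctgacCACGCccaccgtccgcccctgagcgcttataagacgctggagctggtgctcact
Ankrd37: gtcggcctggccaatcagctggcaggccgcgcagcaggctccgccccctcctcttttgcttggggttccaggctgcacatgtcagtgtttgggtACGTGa
Ero1a: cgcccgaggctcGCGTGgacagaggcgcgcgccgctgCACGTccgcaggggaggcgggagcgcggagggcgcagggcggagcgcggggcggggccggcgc
Bnip3: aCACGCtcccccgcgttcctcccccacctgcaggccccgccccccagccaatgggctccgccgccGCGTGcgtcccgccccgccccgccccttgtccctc
Pdk1: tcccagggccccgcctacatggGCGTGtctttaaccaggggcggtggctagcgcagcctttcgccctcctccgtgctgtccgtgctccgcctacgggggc
A core was found in the 250 bases before the start in 9 of 10 promoters of the members, which cover 9 genes, as Ndrg1 has no entry. The same search found one in 38.6% of 32851 promoters in the table. The member promoter without a core is that of the second start of Pdk1. The core of Car9 begins 18 bases and that of Ankrd37 nearest the start 6 bases before it, whereas the core of Egln3 begins 229 bases away. Hif1a and Bnip3 also hold CACGTG, in which ACGTG overlaps the E-box read by many other factors and which 6.02% of promoters contained. The genes that rose and the genes that fell with age both carry the core, and a match is a description of letters and not of a bound site.

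Car9, Adm and Ankrd37 had the largest increases of the members between 15 and 20 weeks, in grouped and in isolated mice alike. Ndrg1, Ero1a and Hif1a rose by less, while Bnip3 and Pdk1 fell. Egln1 and Egln3, the 2 hydroxylases among the members, did not pass the test in either housing. Tests used limma on the 8 arrays of each comparison with Benjamini-Hochberg adjustment over 18193 genes, and a gene was called where the adjusted p was under 0.05.

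**Figure D1:**
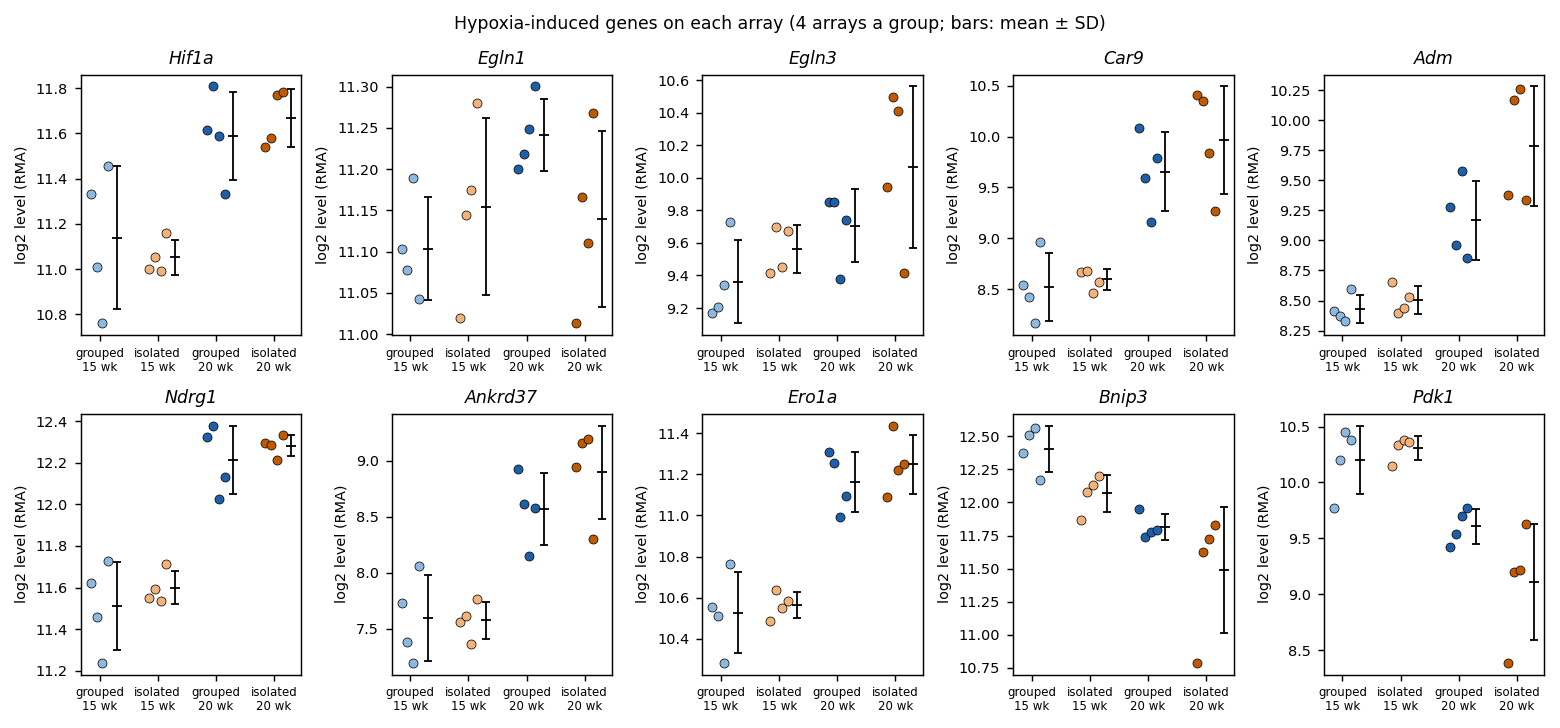
Log2 level (RMA) of the 10 genes on each of the 16 arrays, for the probe set with the highest mean of each gene; colours are the 4 groups and bars give mean ± SD over 4 arrays. For Car9, Adm, Ndrg1, Ankrd37 and Ero1a every 20-week array lies above every 15-week array of the same housing, and for Bnip3 and Pdk1 every one lies below.

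Car9 encodes carbonic anhydrase IX, a membrane enzyme that helps cells dispose of acid and is among the most used hypoxia markers of tumours. Its level was 8.54, 8.42, 8.17 and 8.96 in grouped arrays at 15 weeks and 10.08, 9.59, 9.16 and 9.78 at 20 weeks. In isolated mice it was 8.67, 8.68, 8.47 and 8.57 at 15 weeks and 10.4, 10.35, 9.84 and 9.27 at 20 weeks. The ages did not overlap in either housing, and isolated replicate 4 was the lowest of its group at 20 weeks. Car9 rose by 1.13 on the log2 scale in grouped mice (2.19-fold, SE 0.20, limma adjusted p = 0.00126) and by 1.37 in isolated mice (2.58-fold, SE 0.22, adjusted p = 0.000433). After quantile normalization the increases were 0.91 (adjusted p = 0.00801) and 1.13 (adjusted p = 0.00247). As deposited, the difference in grouped mice was higher than that of 99.5% of genes and the difference in isolated mice higher than that of 99.6%.

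Adm encodes adrenomedullin, a secreted peptide that widens vessels and acts on endothelium. The tested probe set, 1447839_x_at, can share probes with other transcripts, as the x in its name says. It read 8.42, 8.37, 8.33 and 8.59 in grouped arrays at 15 weeks and 9.28, 8.96, 9.58 and 8.85 at 20 weeks. The isolated arrays read 8.65, 8.4, 8.43 and 8.53 at 15 weeks and 9.38, 10.17, 10.26 and 9.33 at 20 weeks. The ages did not overlap, and isolated replicates 2 and 3 were the highest of all arrays. Adm rose by 0.74 in grouped mice (SE 0.14, limma adjusted p = 0.00187) and by 1.28 in isolated mice (2.43-fold, SE 0.21, adjusted p = 0.000484). The dimmer probe set 1416077_at, which has no such mark, rose by 1.07 (SE 0.18) and 1.73 (SE 0.25) in a fit of every probe set, with limma adjusted p of 0.000756 and 0.000173. After quantile normalization the tested probe set rose by 0.52 (adjusted p = 0.0162) and 1.07 (adjusted p = 0.00259).

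Ankrd37 encodes a small ankyrin repeat protein whose gene is a direct HIF target. It read 7.73, 7.38, 7.2 and 8.06 in grouped arrays at 15 weeks and 8.93, 8.61, 8.15 and 8.58 at 20 weeks. Isolated arrays read 7.56, 7.61, 7.37 and 7.77 at 15 weeks and 8.94, 9.16, 9.19 and 8.3 at 20 weeks. All 15-week arrays lay under their array's median but above its lower quartile, so part of this level may be background and the fold depends on it. Ankrd37 rose by 0.97 (1.96-fold, SE 0.20, limma adjusted p = 0.00246) in grouped and by 1.32 (2.5-fold, SE 0.18, adjusted p = 0.000191) in isolated mice. The increases were 0.77 (adjusted p = 0.0171) and 1.13 (adjusted p = 0.000883) after quantile normalization.

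Ndrg1 encodes a stress-responsive protein long used as a hypoxia marker, and it had 5 probe sets. The tested one read 11.62, 11.46, 11.24 and 11.73 in grouped arrays at 15 weeks and 12.32, 12.38, 12.02 and 12.13 at 20 weeks. Isolated arrays gave 11.55, 11.59, 11.54 and 11.71 at 15 weeks and 12.3, 12.28, 12.21 and 12.33 at 20 weeks, the narrowest 20-week group among the members that rose. Ndrg1 rose by 0.70 in grouped (1.63-fold, SE 0.12, limma adjusted p = 0.000962) and by 0.68 in isolated mice (1.61-fold, SE 0.06, adjusted p = 2.51e-05). In the fit of every probe set its 5 probe sets rose by 0.55 to 0.88 in grouped and by 0.68 to 0.91 in isolated mice, each with an adjusted p under 0.05. Quantile normalization left increases of 0.52 (adjusted p = 0.00471) and 0.47 (adjusted p = 0.000163).

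Ero1a, listed as Ero1l, encodes an oxidase that helps proteins form disulfide bonds in the endoplasmic reticulum. It read 10.56, 10.51, 10.28 and 10.76 in grouped arrays at 15 weeks and 11.31, 11.26, 10.99 and 11.09 at 20 weeks. In isolated mice the values were 10.49, 10.64, 10.55 and 10.58 at 15 weeks and 11.09, 11.44, 11.22 and 11.25 at 20 weeks, again with no overlap. It rose by 0.63 in grouped (SE 0.11, limma adjusted p = 0.00104) and by 0.68 in isolated mice (SE 0.08, adjusted p = 6.66e-05). Its 2 dimmer probe sets differed by 0.43 and 0.39 in grouped mice, where 1419029_at did not pass (adjusted p = 0.0926), and rose by 0.69 and 0.77 in isolated mice. The tested probe set rose by 0.40 (adjusted p = 0.00875) and 0.39 (adjusted p = 0.0025) after quantile normalization.

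Hif1a, the oxygen-regulated subunit's own gene, had 4 probe sets. The tested one read 11.33, 11.01, 10.76 and 11.46 in grouped arrays at 15 weeks and 11.62, 11.81, 11.59 and 11.33 at 20 weeks, so that these groups overlapped. On isolated arrays it was 11, 11.06, 10.99 and 11.16 at 15 weeks and 11.54, 11.58, 11.77 and 11.78 at 20 weeks, without overlap. It rose by 0.45 in grouped mice (SE 0.16, limma adjusted p = 0.0294) and by 0.62 in isolated mice (1.53-fold, SE 0.08, adjusted p = 0.000102). After quantile normalization the grouped difference was 0.24 and did not pass (adjusted p = 0.16, the highest over its alternatives, which ran from 0.00702), and the isolated increase was 0.35 (adjusted p = 0.00196). Its other probe sets disagreed in part in the fit of every probe set. In grouped mice 1416035_at rose by 0.52 (adjusted p = 0.000389) and 1431981_at by 0.24 (adjusted p = 0.0255), while 1448183_a_at differed by 0.15 (adjusted p = 0.104). In isolated mice 1416035_at rose by 0.59 and 1448183_a_at by 0.46, while 1431981_at differed by 0.14 (adjusted p = 0.134) with overlapping ages. The grouped call of the tested probe set was also lost without grouped replicate 2 or 3 at 15 weeks (0.40 and 0.32) and without grouped replicate 1, 2 or 3 at 20 weeks (0.44, 0.37 and 0.45).

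Bnip3 encodes a mitochondrial protein that promotes the removal of mitochondria by autophagy, and its transcript is classically raised by hypoxia. Here it was lower at 20 weeks. It read 12.37, 12.51, 12.56 and 12.17 in grouped arrays at 15 weeks and 11.95, 11.74, 11.78 and 11.79 at 20 weeks. In isolated mice it read 11.87, 12.08, 12.13 and 12.2 at 15 weeks and 10.79, 11.62, 11.73 and 11.83 at 20 weeks, where replicate 1 was the lowest of all arrays. Bnip3 fell by 0.59 in grouped (1.5-fold, SE 0.10, limma adjusted p = 0.000829) and by 0.58 in isolated mice (SE 0.20, adjusted p = 0.0292). The isolated call was lost without isolated replicate 2, 3 or 4 at 15 weeks (-0.57, -0.56 and -0.53), and without isolated replicate 1 at 20 weeks the difference was -0.34 and still passed (adjusted p = 0.00734; 0.00489 to 0.0736 over the alternatives). After quantile normalization Bnip3 fell by 0.74 (adjusted p = 0.00146) in grouped and by 0.81 (adjusted p = 0.00787) in isolated mice.

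Pdk1 encodes pyruvate dehydrogenase kinase 1, a mitochondrial enzyme that switches off pyruvate dehydrogenase and so slows the conversion of pyruvate to acetyl-CoA. The tested probe set read 9.77, 10.2, 10.45 and 10.38 in grouped arrays at 15 weeks and 9.42, 9.54, 9.7 and 9.77 at 20 weeks. In isolated mice it read 10.15, 10.34, 10.38 and 10.36 at 15 weeks and 8.39, 9.2, 9.22 and 9.63 at 20 weeks. Replicate 1 of the isolated group was again the lowest and replicate 4 the highest at 20 weeks. Pdk1 fell by 0.60 in grouped (1.51-fold, SE 0.14, limma adjusted p = 0.00557) and by 1.20 in isolated mice (2.3-fold, SE 0.21, adjusted p = 0.000863). After quantile normalization it fell by 0.84 (adjusted p = 0.00274) and 1.46 (adjusted p = 0.000379). Its probe sets disagreed. In the fit of every probe set 1423747_a_at fell by 0.84 and 1.34, while 1423748_at differed by 0.06 (adjusted p = 0.626) and -0.13 (adjusted p = 0.172), and 1434974_at lay under the lower quartile on each of the 16 arrays.

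Egln1 and Egln3 encode the hydroxylases PHD2 and PHD3, which lower HIF-1 alpha and are themselves HIF targets. Egln1 read 11.04 to 11.19 in grouped arrays at 15 weeks and 11.2 to 11.3 at 20 weeks, and 11.02 to 11.28 and 11.01 to 11.27 in isolated mice. The ages did not overlap in grouped mice and did in isolated ones. It differed by 0.14 in grouped (95% interval -0.0028 to 0.28, limma adjusted p = 0.0798) and by -0.02 in isolated mice (-0.19 to 0.16, adjusted p = 0.871). Its direction depends on the scaling: after quantile normalization the grouped difference was -0.09 (adjusted p = 0.373) and the isolated one -0.30 (adjusted p = 0.00256), and relative to the median gene as deposited they were -0.09 and -0.25. Egln3 read 9.17, 9.2, 9.34 and 9.73 in grouped arrays at 15 weeks and 9.85, 9.85, 9.38 and 9.74 at 20 weeks. The isolated values were 9.42, 9.7, 9.45 and 9.68 at 15 weeks and 9.94, 10.49, 10.41 and 9.42 at 20 weeks. The groups overlapped, and Egln3 differed by 0.34 (SE 0.14, adjusted p = 0.0583) in grouped and 0.50 (SE 0.21, adjusted p = 0.0555) in isolated mice. Quantile normalization left 0.10 (adjusted p = 0.572) and 0.24 (adjusted p = 0.367). Without isolated replicate 4 at 20 weeks the isolated difference was 0.72 and passed (adjusted p = 0.00148). In grouped mice it passed without replicate 4 at 15 weeks (0.47, adjusted p = 0.00928) or without replicate 3 at 20 weeks (0.45, adjusted p = 0.0143). The second Egln3 probe set, 1418648_at, rose by 0.33 (adjusted p = 0.0275) in grouped mice and differed by 0.27 (adjusted p = 0.121) in isolated mice in the fit of every probe set.

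**Figure D2:**
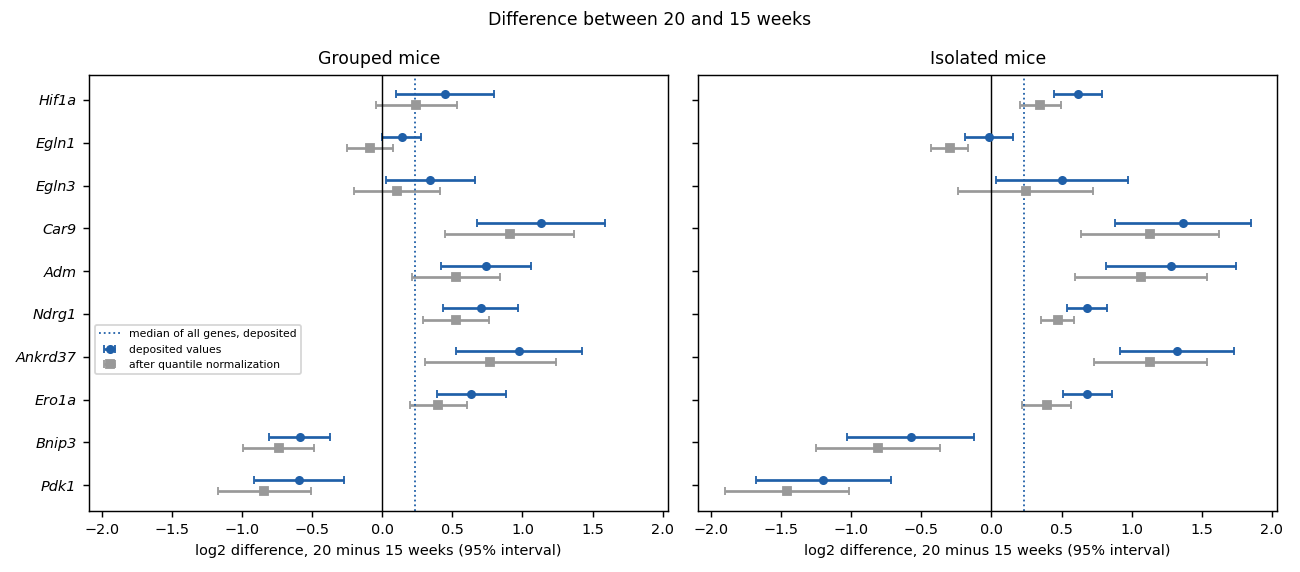
Difference between 20 and 15 weeks (log2, with 95% intervals from limma) of each gene in grouped and isolated mice, from the deposited values (circles) and after quantile normalization (squares); the dotted line is the median of all genes as deposited. Car9, Adm, Ndrg1, Ankrd37 and Ero1a stay above 0 and Bnip3 and Pdk1 below 0 under both scalings, while the Egln1 points lie between -0.30 and 0.14.

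In grouped mice 8 of 10 members were called, 6 higher and 2 lower, where 56% of all genes were called higher and 6.41% lower. In isolated mice 6 were again higher and 2 lower, and 57.3% and 9.33% of all genes were called so. As deposited, then, the share of members that rose is near the background. After quantile normalization 5 members were called higher in grouped mice, where 20% of all genes were, and 2 lower, where 18.4% were. In isolated mice it was 6 against 27.3% and 3 against 23.4%, Egln1 being the third lower member. Of all called genes 89.7% were higher in grouped and 86% in isolated mice as deposited, and 52.2% and 53.8% after quantile normalization. The members' median difference was 0.54 in grouped and 0.65 in isolated mice, beside 0.23 and 0.24 over all genes. In grouped mice 6 members did not overlap upward and 2 downward, with 49.7% and 4.87% of all genes, and in isolated mice also 6 and 2, with 52.7% and 7.39%.

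Other parts of the HIF machinery were read through a list of 14 genes, each measured. In grouped mice 11 were called higher at 20 weeks and 0 lower, where 56% of all genes were called higher. In isolated mice 12 were higher and 1 lower, where 57.3% of all genes were higher. The list medians of 0.31 in each housing, however, lay near the median gene. After quantile normalization 3 of the 14 were higher in each housing, where 20% of all genes were in grouped and 27.3% in isolated mice. None was lower in grouped mice and 1 was in isolated mice. Cited2, which competes with HIF for its coactivators, rose by 0.60 (limma adjusted p = 0.000672) in grouped and 0.79 (adjusted p = 2.27e-05) in isolated mice. The coactivators themselves rose too, Crebbp by 0.58 (adjusted p = 0.000753) and 0.44 (adjusted p = 0.00157) and Ep300 by 0.44 (adjusted p = 0.000535) and 0.30 (adjusted p = 0.016). Vhl rose by 0.32 (adjusted p = 0.00167) and 0.55 (adjusted p = 0.000456). Hif1an, the asparagine hydroxylase that blocks HIF's coactivator contact, rose by 0.53 (adjusted p = 0.00144) in grouped and 0.27 (adjusted p = 0.00455) in isolated mice. Relative to the median gene Vhl in grouped mice stood at 0.09, and in isolated mice Hif1an stood at 0.04 and Ep300 at 0.07. Egln2, a hydroxylase gene of the Egln family outside the 10 members, rose by 0.29 (limma adjusted p = 0.00341) in grouped mice. In isolated mice Egln2 rose by 0.33 (adjusted p = 0.00136). Relative to the median gene it stood at 0.07 and 0.10. Among the partners of Vhl in its ubiquitin ligase, Rbx1 rose by 0.32 in each housing and Cul2 by 0.27 in grouped mice. Elob and Eloc rose by 0.46 and 0.30 in isolated mice. Relative to the median gene these were 0.09 in each housing for Rbx1, 0.04 for Cul2, 0.22 for Elob and 0.07 for Eloc. In grouped mice Elob rose by 0.24 (limma adjusted p = 0.0373) and Eloc differed by 0.08 (adjusted p = 0.399). Mean Cul2 went from 10.09 to 10.41 in isolated mice. The gene that fell in isolated mice was Epas1, which encodes HIF-2 alpha and is abundant in endothelium (-0.77, SE 0.20, adjusted p = 0.00696). It differed by -0.06 in grouped mice (adjusted p = 0.695).

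Of 30 further HIF targets 26 were measured. In grouped mice 10 rose and 4 fell with age, where 56% and 6.41% of all genes did. In isolated mice 16 rose and 5 fell, where 57.3% and 9.33% did. The share that rose was thus under that of all genes in grouped mice and near it in isolated mice. The list medians were 0.20 and 0.43, or -0.03 and 0.20 relative to the median gene. After quantile normalization 8 rose and 6 fell in grouped mice, against 20% and 18.4% of all genes. In isolated mice it was 13 and 7, against 27.3% and 23.4%. P4ha2, a collagen prolyl hydroxylase, rose by 0.77 (SE 0.08, limma adjusted p = 0.000124) in grouped and by 1.00 (SE 0.09, adjusted p = 2.29e-05) in isolated mice. The histone demethylase gene Kdm3a rose by 0.80 and 0.87, the growth inhibitor gene Ddit4 by 0.96 and 1.08, and Bhlhe40, a transcriptional repressor, by 0.77 and 0.71. The dioxygenase gene Jmjd6 rose by 0.48 and the Myc antagonist gene Mxi1 by 0.41 in grouped mice. Tfrc, the transferrin receptor, rose by 0.85 in isolated mice. Their means moved the same way in the other housing. Tfrc went from 10.72 to 11.62 in grouped mice, and Jmjd6 from 9.07 to 9.54 and Mxi1 from 11.27 to 11.69 in isolated mice. In isolated mice the collagen crosslinking genes Lox and Plod2 rose by 1.45 (SE 0.15) and 1.02 (SE 0.10). In grouped mice Plod2 rose by 0.46 (adjusted p = 0.0143) and Lox differed by 0.41 (adjusted p = 0.0837). The glycogen branching enzyme gene Gbe1 fell by 0.68 and 1.27, and the secreted factor gene Stc2 by 0.51 and 0.72.

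The glycolysis and VEGF targets were mixed. Of 13 listed genes 11 were measured. In grouped mice 4 were called higher and 1 lower, where 56% and 6.41% of all genes were. In isolated mice 6 were higher and 3 lower, where 57.3% and 9.33% of all genes were. After quantile normalization 3 were higher and 1 lower in grouped mice, against 20% and 18.4% of all genes. In isolated mice it was 2 and 4, against 27.3% and 23.4%. Of all genes called in isolated mice, 86% were higher as deposited and 53.8% after quantile normalization. Slc2a1, the glucose transporter GLUT1, rose by 0.94 (SE 0.25, limma adjusted p = 0.0083) and 0.92 (SE 0.06, adjusted p = 9.37e-06). Hk2, the hexokinase of muscle and fat, fell by 1.28 (SE 0.26, adjusted p = 0.00168) in isolated mice and differed by -0.24 (adjusted p = 0.271) in grouped mice. Pfkl, a phosphofructokinase, fell by 0.52 and 0.83. The aldolase gene Aldoc rose by 0.61 in grouped mice, and Aldoa fell by 0.52 in isolated mice. In the other housing mean Aldoc went from 10.04 to 10.46 (isolated) and mean Aldoa from 14.03 to 13.94 (grouped). Vegfa rose by 0.46 (adjusted p = 0.00797) in isolated mice and differed by 0.19 (adjusted p = 0.0775) in grouped mice.

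**Figure D3:**
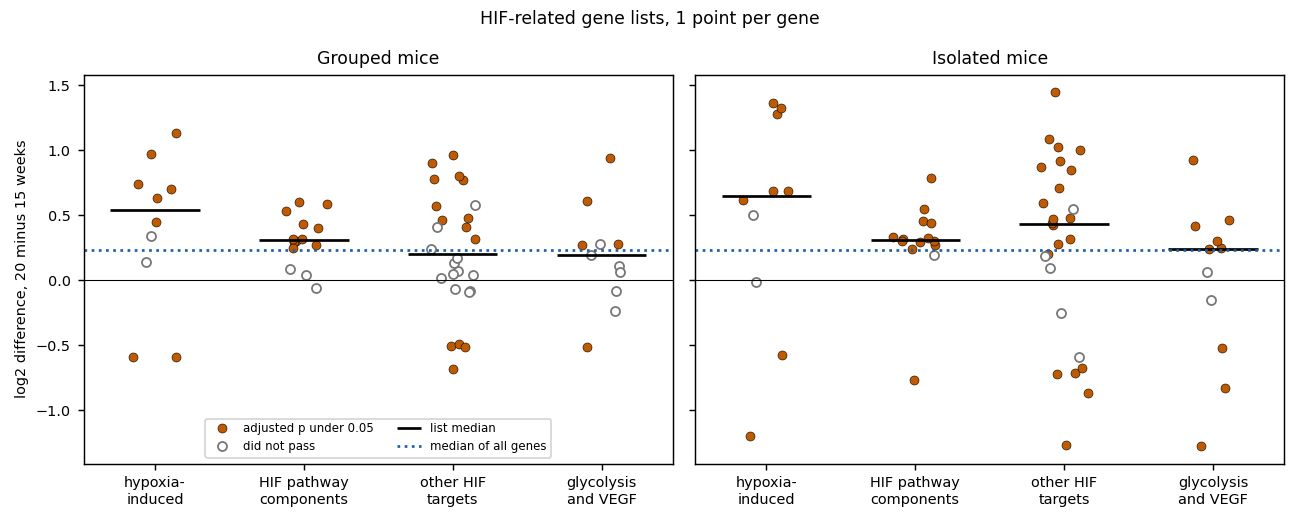
Difference between 20 and 15 weeks (log2) of each gene in the 4 HIF-related lists; filled points passed the test (adjusted p under 0.05), black bars are list medians and the dotted line is the median of all genes. The members' medians are 0.54 in grouped and 0.65 in isolated mice, and each list except the pathway components in grouped mice holds genes called lower.

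Markers of cell types and of dividing cells moved with age too. White adipocyte markers fell in 12 of 13 measured genes in grouped and 13 of 13 in isolated mice. Of all genes 6.41% and 9.33% were called lower. After quantile normalization 12 and 13 of these markers fell, against 18.4% and 23.4% of all genes. The adipocyte mean ran from 12.15 to 12.71 in grouped arrays at 15 weeks and from 11.56 to 11.75 at 20 weeks. In isolated mice it ran from 12.15 to 12.38 and from 10.24 to 11.76. The low end at 20 weeks was isolated replicate 1 and the high end replicate 4, the arrays where Bnip3 and Pdk1 were lowest and highest of that group. In grouped mice at 20 weeks the adipocyte mean was highest in replicate 1 (11.75) and lowest in replicate 4 (11.56). Pdk1 had the opposite order there (9.42 in replicate 1, its lowest, and 9.77 in replicate 4, its highest). Bnip3 was highest in grouped replicate 1 (11.95) and lowest in replicate 2 (11.74). Cell cycle genes rose in 13 of 13 genes in each housing, where 56% and 57.3% of all genes did. After quantile normalization 12 of the 13 rose in each, against 20% and 27.3%. The cell cycle mean went from 10.2 to 10.96 in grouped arrays at 15 weeks to 11.23 to 11.53 at 20 weeks. In isolated mice it went from 10.56 to 10.63 to 11.22 to 11.69. Keratinocyte markers were called higher in 5 of 10 genes in grouped and 6 of 10 in isolated mice, a share near that of all genes as deposited. After quantile normalization 4 of 10 were higher in each, against 20% and 27.3% of all genes. In isolated mice 1 was called lower as deposited, where 9.33% of all genes were, and Sprr1b after quantile normalization, where 23.4% were. The keratinocyte mean did not overlap between ages, at 7.38 to 7.63 and then 7.91 to 8.11 in grouped mice. In isolated mice it was 7.45 to 7.53 and then 7.89 to 8.44. The keratinocyte marker Flg lay under the lower quartile on each of the 16 arrays. Luminal markers were called higher in 9 of 14 genes in each housing, a share near that of all genes as deposited. They were called lower in 1 and 4, where 6.41% and 9.33% of all genes were. After quantile normalization 8 were higher and 2 lower in grouped mice, against 20% and 18.4% of all genes. In isolated mice it was 6 and 5, against 27.3% and 23.4%. The luminal mean went from 10.81 to 11.03 at 15 weeks to 11.17 to 11.41 at 20 weeks in grouped mice. It overlapped in isolated mice (10.94 to 11.06 and 10.91 to 11.23). Endothelial markers were called higher in 4 of 12 genes in grouped mice, under the 56% of all genes. In isolated mice 3 of 12 were called lower, where 9.33% of all genes were. After quantile normalization 1 was higher and 1 lower in grouped mice, against 20% and 18.4% of all genes. In isolated mice 7 were lower, against 23.4%. As deposited, the endothelial mean in isolated mice ran from 8.7 to 9.63 at 20 weeks against 9.33 to 9.54 at 15 weeks. Macrophage markers rose in 11 of 15 genes in isolated mice, where 57.3% of all genes did. In grouped mice 0 of 15 rose, where 56% of all genes did. The macrophage mean went from 10.29 to 10.69 to 10.61 to 11.38 in isolated mice. In grouped mice it ran from 10.73 to 10.99 at 15 weeks and from 10.13 to 11.33 at 20 weeks. After quantile normalization 7 were higher in isolated mice, against 27.3% of all genes, and 5 lower in grouped mice, against 18.4%. Skeletal muscle markers were called lower in 8 of 17 genes in isolated mice, where 9.33% of all genes were. In grouped mice 3 of 17 were called higher, a share under that of all genes, and the median of the list lay at -0.14 relative to the median gene. After quantile normalization 10 were lower in isolated mice, against 23.4% of all genes, and 3 higher in grouped mice, against 20%. None of the adipocyte, cell cycle, luminal, endothelial, macrophage or skeletal muscle markers measured lay under the lower quartile on all arrays. Their part in the differences of the members was not tested.

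**Figure D4:**
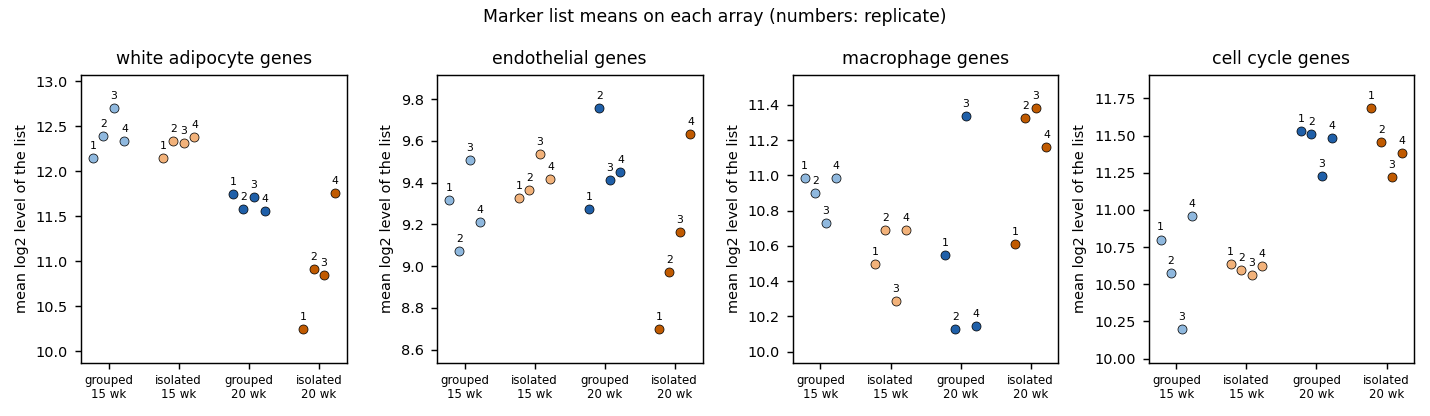
Mean log2 level of 4 marker lists on each array, with replicate numbers beside the points. White adipocyte means at 20 weeks lie below those at 15 weeks in both housings, and isolated replicates 1 and 4 at 20 weeks are the lowest and highest of their group at 10.24 and 11.76.

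The remaining comparisons asked whether isolation changed these genes at a given age. At 15 weeks 0 of 10 members were called by limma, where 0.044% of all genes were, and 1 had an unadjusted p under 0.05, where 9.7% did. None of the 10 tested probe sets separated the groups without overlap, against 5.69% of all genes. The median difference of the members was 0.06, beside -0.01 over all genes. That gene was Bnip3. It ran from 11.87 to 12.2 on isolated arrays and, overlapping these, from 12.17 to 12.56 on grouped ones, a difference of -0.34 (SE 0.10, 95% interval -0.56 to -0.11, adjusted p = 0.377). Car9 differed by 0.08 (-0.23 to 0.39), Hif1a by -0.09 (-0.38 to 0.21), Egln3 by 0.20 (-0.07 to 0.47) and Ankrd37 by -0.02 (-0.38 to 0.35). Adm differed by 0.08 (-0.09 to 0.25), but its second probe set 1416077_at, at 7.14 to 7.34 in grouped mice, was above this range on each isolated array (7.39 to 7.58; 0.19, limma adjusted p = 0.445 among all probe sets). The second Egln3 probe set differed by 0.28 (adjusted p = 0.439). The grouped arrays at 15 weeks were the more spread for most members. The SD of Car9 was 0.33 in grouped and 0.10 in isolated arrays, and that of Ndrg1 was 0.21 and 0.08. For Egln1 it was 0.06 and 0.11, and for Adm 0.117 and 0.115. Replicate 3 of the grouped mice was the lowest and replicate 4 the highest for Hif1a, Car9, Ndrg1, Ankrd37 and Ero1a. The same arrays had the lowest and highest cell cycle mean of that group (10.2 and 10.96), whose part was not tested.

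At 20 weeks 0 of 10 members were called, where 0.011% of all genes were, and 1 had an unadjusted p under 0.05, where 8.49% did. That gene was Adm. It ran from 8.85 to 9.58 on grouped arrays and, overlapping these, from 9.33 to 10.26 on isolated ones, a difference of 0.62 (SE 0.24, 95% interval 0.07 to 1.17, limma adjusted p = 0.577). The second Adm probe set differed by 0.85 (SE 0.31, adjusted p = 0.601 among all probe sets). Adm was above its grouped range in isolated replicates 2 and 3 only. Macrophage markers had a mean of 11.32 and 11.38 in those arrays and of 10.61 and 11.16 in the other isolated ones, and of 11.33 in grouped replicate 3, which had the highest Adm of its group, against 10.13 to 10.55 in the other grouped arrays. Of 15 macrophage markers 15 had a positive difference and 0 were called. Their part in the Adm values was not tested.

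Pdk1 differed by -0.50 at 20 weeks (SE 0.22, 95% interval -1.0 to 0.00468, limma adjusted p = 0.584), Egln3 by 0.36 (-0.15 to 0.87), Ankrd37 by 0.33 (-0.15 to 0.82) and Car9 by 0.31 (-0.29 to 0.91). For Ndrg1 and Ero1a the differences were 0.07 (-0.13 to 0.26) and 0.09 (-0.13 to 0.30). Here the isolated arrays were the more spread for most members. The SD of Pdk1 was 0.52 in isolated against 0.16 in grouped arrays and that of Egln3 0.50 against 0.23. Ndrg1 (0.05 against 0.16) and Hif1a (0.13 against 0.19) were the less spread in isolated arrays, and Ero1a was alike (0.144 against 0.147). White adipocyte markers had a negative difference in 13 of 13 genes, skeletal muscle markers in 17 of 17, endothelial markers in 12 of 12 and luminal markers in 14 of 14, with 0 called. After quantile normalization 3 of the luminal markers had a positive one. The medians were -0.78, -0.53, -0.34 and -0.11 in that order, and their part was not tested. Single arrays moved these differences in both directions, with 0 members called each time. Car9 ranged from 0.15 without grouped replicate 3 to 0.54 without isolated replicate 4, and Ankrd37 from 0.19 to 0.53 without the same arrays. Egln3 ranged from 0.22 without isolated replicate 2 to 0.58 without isolated replicate 4. Pdk1 ranged from -0.26 without isolated replicate 1, its lowest array, to -0.67 without isolated replicate 4. The members had a median of 0.08, beside -0.01 over all genes, and 0 of 10 separated the groups, against 4.2% of all genes.

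**Figure D5:**
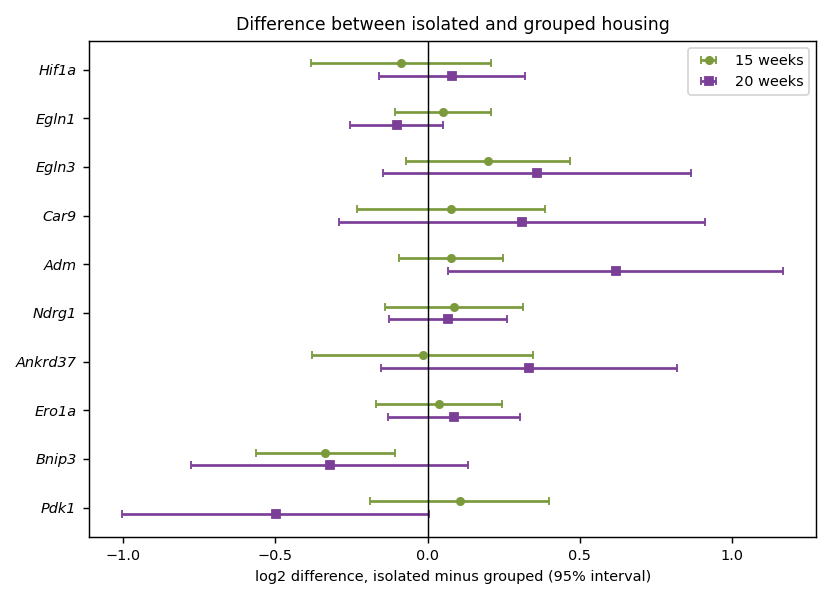
Difference between isolated and grouped mice (log2, with 95% intervals from limma) of each gene at 15 weeks (circles) and 20 weeks (squares). The intervals of Bnip3 at 15 weeks (-0.56 to -0.11) and Adm at 20 weeks (0.07 to 1.17) leave out 0 and the others include it, and neither gene passed after adjustment.

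Among the other HIF-related lists 0 genes passed for housing at either age. At 20 weeks the smallest p among other targets were those of the collagen-modifying enzyme genes Lox (1.00, SE 0.22, limma adjusted p = 0.422), Plod2 (0.41, SE 0.10, adjusted p = 0.452) and P4ha2 (0.32, SE 0.08, adjusted p = 0.465). For each of them every isolated array lay above every grouped array. Fibroblast and matrix markers had a positive difference in 14 of 14 genes, with 0 called. Their mean ran from 11.43 to 12.42 on grouped and, overlapping these, from 11.78 to 12.51 on isolated arrays, and their part was not tested. Epas1 differed by -0.51 (adjusted p = 0.577) and Vegfa by 0.32 (adjusted p = 0.577). At 15 weeks the gene of smallest p in the glycolysis list was Hk2 (0.48, limma adjusted p = 0.261). Among further targets it was Angptl4, an inhibitor of lipoprotein lipase (-0.33, adjusted p = 0.392), and among pathway components Eloc, part of the Vhl complex (-0.19, adjusted p = 0.462).

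Whether the housing difference itself differed between the ages was tested over all 16 arrays. For this interaction 0 of 10 members were called, where 0.011% of all genes were, and 1 had an unadjusted p under 0.05, where 12.7% did. Pdk1 had the largest value, -0.60 (SE 0.28, 95% interval -1.20 to -0.01, limma adjusted p = 0.384), followed by Adm at 0.54 (-0.04 to 1.12, adjusted p = 0.42). That of Car9 was 0.23 (-0.46 to 0.93), and the interval leaves room for effects of either sign.

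The genes most like each member over the 16 arrays were found from deviations from the group means, so that housing and age do not enter. Which group's arrays carry a correlation differs between members and was not measured: the SD of Pdk1 was highest in isolated mice at 20 weeks (0.52), and that of Ndrg1 in grouped mice at 15 weeks (0.21). The correlations are given as a description. Nearest to Car9 were Ift74, Yrdc and Id3 (Pearson r 0.936, 0.932 and 0.932), and nearest to Ankrd37 were Crct1, Iqce and Gsdme (0.909, 0.901 and 0.895). Nearest to Adm were Nxpe4, Ccn5 and Cd209f (0.871, 0.867 and 0.861). For Bnip3 they were Gdpd3, G0s2 and Acadsb (0.916, 0.915 and 0.908), and for Pdk1 they were Rhob, Sox13 and Mrpl15 (0.955, 0.954 and 0.954). Hif1a lay nearest to Septin7, Anxa2 and Adam10 (0.948, 0.93 and 0.928) and Ndrg1 to Zfp445, Usp32 and Nupl1 (0.97, 0.96 and 0.959). Egln1 lay nearest to Tex2, Fitm2 and Klf9 (0.914, 0.904 and 0.895), Egln3 to Sbsn, Gm4349 and H3f3b (0.897, 0.895 and 0.895), and Ero1a to Epb41l5, Eif5 and Wfdc2 (0.926, 0.888 and 0.886). No member was among the 3 nearest genes of another member.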

How the data were processed

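Expression in 16 mammary gland samples was measured on Affymetrix arrays. The deposited values are log2 levels from RMA, run by the authors in affy (version not stated) per the submitters' processing notes. This method removes background, evens out distributions and gives 1 value a probe set. The table held 45101 probe sets with 0 missing values. Arrays carry no read depth, so their number limits the precision. A single gene symbol was given for 34945 of them, several for 932 and none for 9211 (control probe sets apart), and each of 18193 genes was tested on its probe set with the highest mean. No arrays of a group were duplicates (SD of the difference 0.115 or more).

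Differences were fitted with limma 3.58.1 in R 4.3.3 (lmFit, eBayes with trend), as isolated minus grouped or as 20 minus 15 weeks on the 8 arrays concerned, and as an interaction over 16 arrays, with an adjusted p under 0.05. The fits were tested on simulated data. The members and lists were chosen with earlier results of these data known. Named were the 10 members, the 3 nearest genes of each, and list genes taken from those that passed (up to 8 by p in a comparison) or otherwise the 3 of smallest p. A list gene named for one housing or age may be given in the other, and Epas1 was named with age after its values were seen. Alternatives were other scaling, filters, probe sets, priors, samples, a covariate and the replicate block. Promoter sequences are RefSeq's, of GRCm38.p6.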

Additional observations from a re-analysis of the deposited data

How the results depend on the processing

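The count of called members stayed within 1.5 times in every alternative run: 0 for housing at 15 weeks, housing at 20 weeks and the interaction, 7 to 10 in grouped and 7 to 9 in isolated mice with age. Car9, Adm, Ndrg1, Ankrd37 and Pdk1 kept direction and call with age in both housings under every alternative run, apart from Ankrd37 above the 40th percentile of gene levels, where it was not tested. Ero1a did so except in grouped mice when its most variable probe set was used (0.39, limma adjusted p = 0.0967, range over alternatives 6.1e-05 to 0.0967). Same-numbered arrays deviated together in some pairs and not in others (correlations of deviations from -0.2 to 0.488), so the numbers were not taken to pair the samples. With the replicate number as a block 0 members were called for housing and the interaction, and 8 and 9 with age in grouped and isolated mice; the block moved the genes called from 8 to 17 for housing at 15 weeks and from 2 to 8 for the interaction.

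Counts over all genes moved more. From 8 for housing at 15 weeks they went to 4 with every probe set, 27 at a threshold of 0.1, 2 with all 16 arrays in the fit and 2 with the Gapdh 3' minus 5' covariate. From 2 for housing at 20 weeks they went to 4 with every probe set and 8 with all 16 arrays. From 2 for the interaction they went to 1 with the filter and 1 without the trend. From 11362 with age in grouped mice they went to 6987 after quantile normalization, 6720 with the filter, which tests fewer genes, and 28727 with every probe set, which tests more, and from 12119 in isolated mice to 7764 and 30453 in the last pair of settings. Leaving out single arrays gave 0 to 31 genes for housing at 15 weeks (31 without grouped replicate 3, 16 without grouped replicate 1, 0 to 2 when grouped replicate 2 or any of isolated replicates 1, 2 and 3 was dropped) and 0 to 136 at 20 weeks (136 without isolated replicate 4, at most 3 otherwise). For the interaction they were 0 to 139 (139 without isolated replicate 4 and 86 without grouped replicate 3 at 20 weeks, at most 13 otherwise), and with age 9924 to 11288 in grouped and 10905 to 12155 in isolated mice.

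Differences that turned their sign were small and not called. With the most variable probe set these were Egln1 (-0.0029 for housing at 15 weeks, 0.0094 at 20 weeks, -0.072 with age in grouped mice, 0.012 for the interaction), Ero1a (-0.11 for housing at 15 weeks) and Ndrg1 (0.082 for the interaction). After quantile normalization they were Egln1 with age in grouped mice (-0.086) and Bnip3 (-0.082) and Ero1a (-0.00051) for the interaction. With the Gapdh covariate they were Egln1 (-0.0079) and Ankrd37 (0.10) for housing at 15 weeks and Hif1a (-0.00203) and Bnip3 (-0.15) for the interaction. Leaving out single arrays turned housing differences at 15 weeks of Hif1a (-0.21 to 0.019), Car9 (-0.043 to 0.22), Ndrg1 (-0.0051 to 0.16), Ankrd37 (-0.15 to 0.14), Ero1a (-0.044 to 0.115) and Pdk1 (-0.039 to 0.19), that of Hif1a at 20 weeks (-0.00359 to 0.15), that of Egln1 with age in isolated mice (-0.0601 to 0.027) and the interactions of Bnip3 (-0.098 to 0.25), Ndrg1 (-0.091 to 0.072) and Ero1a (-0.028 to 0.13). The cause was not tested.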
